A study of Mus musculus with 8 samples.

Results

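Solute carrier (Slc) genes encode membrane transporters, and the m6A peaks on their transcripts were taken from m6ARIP-seq of mouse liver. Members were the peaks whose gene is named Slc followed by a family number, letters and a gene number, with Slc2a2, Slc37a4, Slc40a1 and Slc11a1 left out. They comprised 294 of 15635 peaks in the Wtap flox/flox list and 310 of 19185 peaks in the Wtap-HKO list, in 194 of 11558 genes with a peak. A further 91 of 3870 rows lay in Slc genes in the list of peaks that the authors' caller gave as differing between the genotypes. The mice were labelled C57BL/6 (a C57BL/6J background in the study's methods), 8 weeks old and fed chow. Both genotypes carry floxed Wtap alleles, and Wtap-HKO mice also carry Alb-Cre, which deletes Wtap in hepatocytes and not in the other cells of the liver. For each genotype 2 IP libraries and 2 input libraries were made, with RNA of 5 mice pooled per replicate.

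The replicates of a genotype are combined in every list, so each value is 1 number per genotype with no replicate error. No test was possible, and all comparisons are descriptions. The lists give neither read totals nor the abundance of the transcripts, so depth is unknown, and a peak that is missing from a list may be a transcript with too few reads as much as one without the mark. Whether fewer cells of a type or less RNA per cell stands behind a missing peak cannot be told apart in whole liver. Wtap itself had 3 peaks in either list, which does not check the deletion. Of 10 hepatocyte marker genes, 7 had a peak in Wtap flox/flox, against 8 in Wtap-HKO. Of 10 markers of the other liver cells, 4 had a peak in Wtap flox/flox (Clec4f, Pecam1, Lrat and Des) and 7 in Wtap-HKO, where Ptprc, Col1a1 and Epcam were added.

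m6A is a methyl group on adenosine inside mRNA. A complex of METTL3 and METTL14 writes it, and WTAP holds this complex in nuclear speckles. The mark lies mostly in long exons and near stop codons, and antibodies to m6A also bind m6Am, a related mark at the base next to the cap, which another enzyme writes. In hepatocytes the Slc families carry bile acids, amino acids, fatty acids, sugars, metals and mitochondrial metabolites across membranes.

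The start sites next to the peaks at the 5′ end are shown for 8 genes. Of the 90 Slc peaks found in the Wtap-HKO list alone, 28 lay there, beside 1623 of 6773 over all genes. Both totals include peaks that could not be placed on a gene span. In the whole Wtap-HKO list 307 of 310 Slc peaks were placed, against 17130 of 19185 peaks of all genes, so these shares are not directly comparable. Each line gives the 10 bases before the RefSeq start and the 20 transcribed bases from it (GRCm38.p6), 5′ to 3′, with the start base in capitals. The first 4 genes had a peak there in both genotypes and the last 4 in Wtap-HKO only.
Slc3a1, chr17:85028337-85028366, plus strand: attcaaagctCattaacaaagcacagcgct
Slc16a1, chr3:104638654-104638683, plus strand: ctgccccgccAgacaaagtggcgagctgcg
Slc35e3, chr10:117746339-117746368, minus strand: ctcgcggcgcAgcgaccgggacccggctgg
Slc10a1, chr12:80968686-80968715, minus strand: agttactctcCacagctggagtttctcgtg
Slc27a4, chr2:29802624-29802653, plus strand: ctgcggaggcAgtggtgcgcgcagggctgg
Slc16a10, chr10:40142235-40142264, minus strand: cggcgtaatcAggcgcgaggggcagccggt
Slc38a2, chr15:96699709-96699738, minus strand: gctataactcGcgctcgggaagctgctcca
Slc12a4, chr8:105966096-105966125, minus strand: ggtggaatgcGagcgggcggggcgggccag
The peaks of Slc3a1 and Slc27a4 began at the start base itself, and that of Slc10a1 in Wtap-HKO began 30 bases downstream. Of the 194 genes, 144 had a start site in the RefSeq table. A start lay in or within 200 nt of a peak in 41 genes of the Wtap flox/flox list and 66 genes of the Wtap-HKO list, 39 of them shared. The start base was A at 15 of 50 such starts near a Wtap flox/flox peak and at 30 of 81 near a Wtap-HKO peak, beside 34.4% of all 32851 starts. The motif GGACT, a preferred m6A context read here on the transcribed strand only, was in the first 50 transcribed bases at 0 of the 50 starts, at 2 of the 81 starts (Slc12a4 and Slc16a9) and at 5.76% of all starts.

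Most of these Slc genes had a peak in both genotypes. Peaks were present in both lists for 153 of the 194 genes, in Wtap flox/flox only for 16 (8.25%) and in Wtap-HKO only for 25 (12.9%). Over all genes these shares were 7.99% and 22%. Of the 153 genes, 71 had the same number of peaks in both lists, 40 had more in Wtap-HKO and 42 had fewer. This split was not computed over all genes, so it has no background here. A gene held 1.74 peaks on average in either genotype. The fold enrichment, a linear ratio of IP over input that the authors deposited, had a median of 4.93 over the Slc peaks of Wtap flox/flox (interquartile range 2.97 to 8.22) and 5.31 over those of Wtap-HKO (3.38 to 10.8), beside 5.51 and 5.93 over all peaks.

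The positions of the peaks overlapped less than the genes did. Of the Wtap flox/flox Slc peaks, 81 (27.6%, 95% Wilson interval 22.8 to 32.9%) shared no exonic base with a Wtap-HKO peak on the same strand, beside 19.9% of all peaks. Of the Wtap-HKO Slc peaks, 90 (29%, 24.3 to 34.3%) shared none with a Wtap flox/flox peak, beside 35.3% of all peaks. These intervals reflect counting error alone, and peaks of 1 gene do not count as independent. Of the unshared peaks, 63 of the Wtap flox/flox list and 57 of the Wtap-HKO list lay in genes that had a peak in both lists. Peaks with weak support were unshared more often. Among Wtap-HKO Slc peaks with a false discovery rate of 1e-10 or more, 51 of 82 (62.2%) were unshared, and among the others 39 of 228 (17.1%) were. The contrast was smaller among Wtap flox/flox Slc peaks. There 37 of 84 (44.05%) at 1e-10 or more were unshared, against 20.95% of the other 210. These shares by false discovery rate were not computed over all genes, so they have no background here.

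Peaks lay at both ends of the gene and the 5′ end held more of them in Wtap-HKO. Positions are relative to the RefSeq span of the gene, introns included, and 289 and 307 Slc peaks could be placed. An edge was within 200 nt of the 5′ end for 40 peaks (13.8%, 10.3 to 18.3%) in Wtap flox/flox, beside 10.7% of all peaks, and for 68 peaks (22.1%, 17.9 to 27.1%) in Wtap-HKO, beside 18.2%. Of the 68, 28 did not overlap a Wtap flox/flox peak, beside 1623 of the 3118 such peaks of all genes. Of the 40, 2 did not overlap a Wtap-HKO peak (Slc26a6 at 11.9 and Slc25a26 at 11), beside 105 of 1496. Within 200 nt of the 3′ end lay 25 peaks of Wtap flox/flox (8.65%, beside 10% of all peaks) and 25 of Wtap-HKO (8.14%, beside 8.24%). The last 10% of the span held 45.7% of the Slc peaks in Wtap flox/flox, against 40.7% in Wtap-HKO. Over all genes it held 42.78% and 35.97% of the placed peaks, so the share was lower in Wtap-HKO there too. The 5′ share was higher in Wtap-HKO over all genes as well, and whether Slc genes differ from them was not tested.

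**Figure D1:**
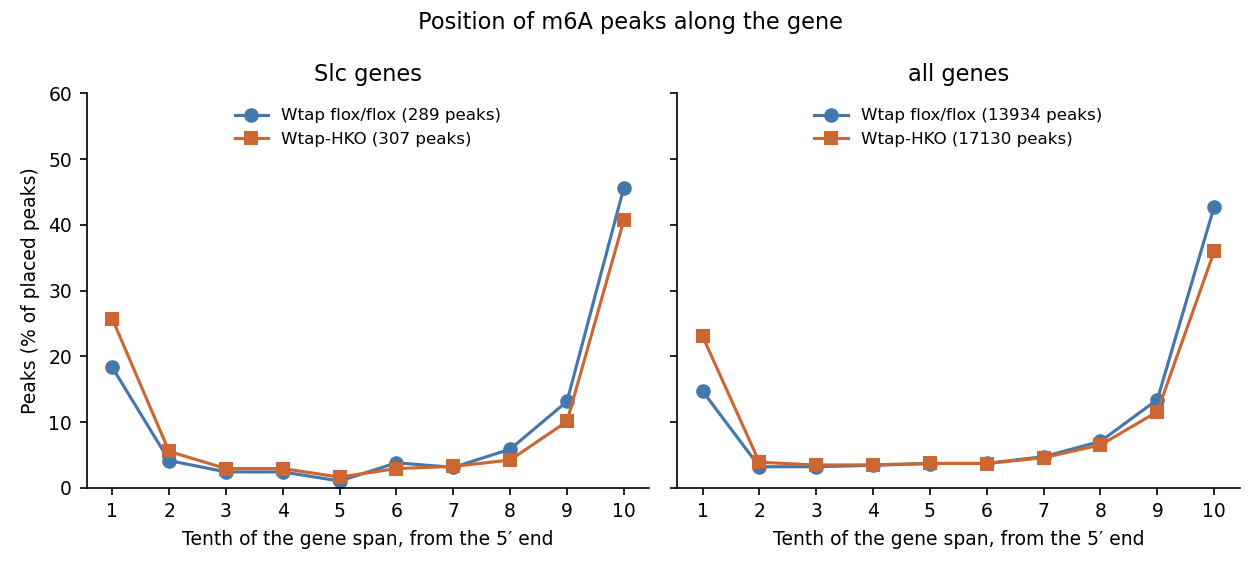
Share of placed peaks (%) in each 10% of the gene span from the 5′ end, for Slc genes (left) and all genes (right), with circles for Wtap flox/flox and squares for Wtap-HKO. In Slc genes the first 10% held 18.3% of the Wtap flox/flox peaks and 25.7% of the Wtap-HKO peaks, and the last 10% held 45.7% and 40.7%. Over all genes the first 10% held 14.7% and 23.1%, and the last 10% held 42.78% and 35.97%.

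The 28 peaks at the 5′ end that were listed in Wtap-HKO alone had fold enrichments from 2.48 to 27.1, with a median of 5.98. The highest was on Slc22a17 (27.1, 90 exonic nt, false discovery rate 5e-07). The next was on Slc7a5, the light chain of the large neutral amino acid exchanger, at 19.6. Slc25a38, a mitochondrial glycine carrier needed for heme synthesis, had 17.2. The lowest was on Slc30a9 at 2.48. Of these peaks, 20 were in genes with another peak in Wtap flox/flox.

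At 35 peaks within 200 nt of the 5′ end the genotypes could be compared directly, because 1 peak of either list overlapped only 1 peak of the other. The ratio of the fold enrichments, Wtap-HKO over Wtap flox/flox, was put on the log2 scale and centred on the median of all 10499 such pairs, a shift of 0.0125. The centred log2 ratio was above 0 at 32 of the 35 pairs, beside 1085 of the 1263 pairs at a 5′ end in all genes. The median was 0.88, beside 0.82 over all genes. The 3 pairs below 0 were Slc10a2, the ileal type of bile acid transporter (3.17 in Wtap flox/flox, against 2.09 in Wtap-HKO), Slc25a34 (8.45 and 5.87) and Slc22a23 (1.84 and 1.67). The largest values were 1.75 at Slc25a30, 1.74 at Slc22a7 and 1.72 at Slc35e3.

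**Figure D2:**
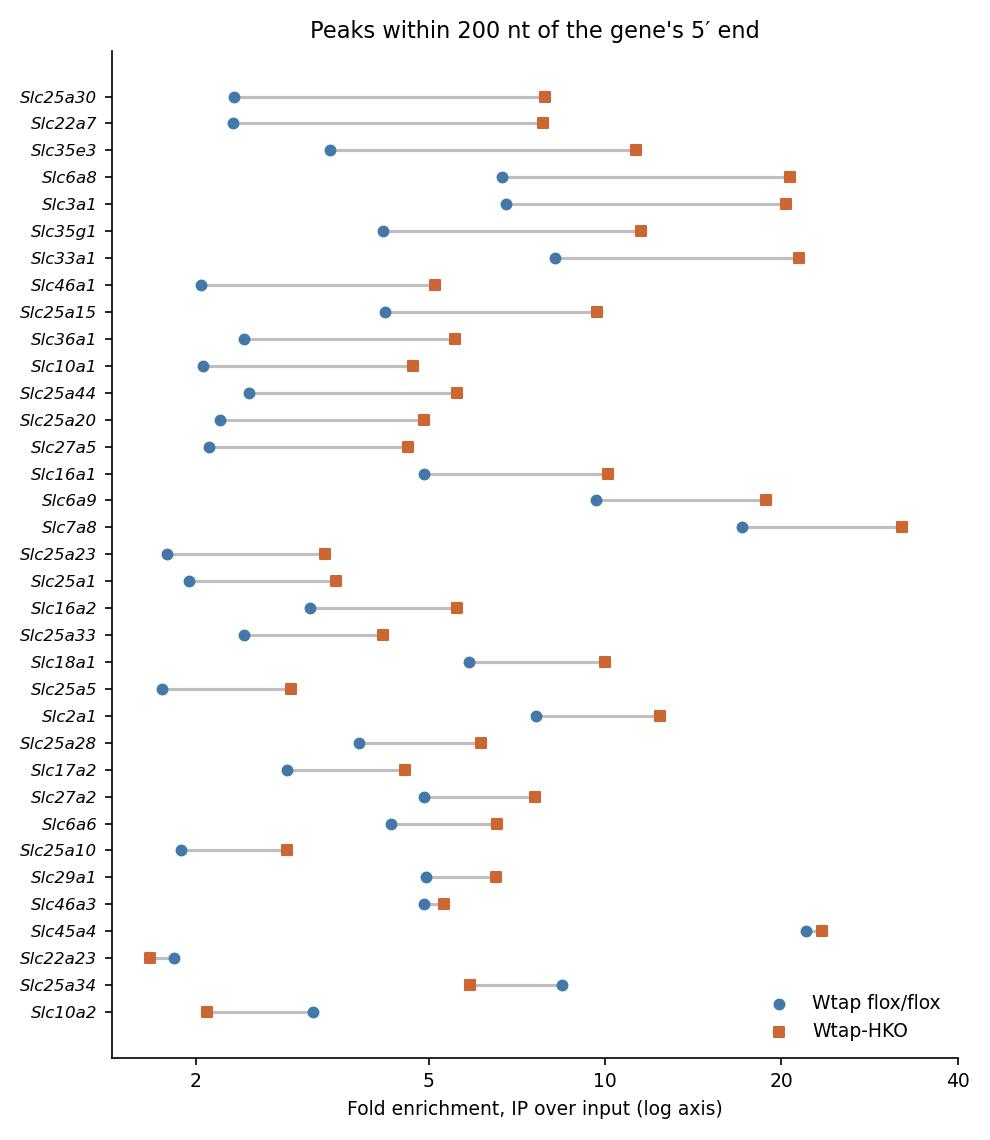
Fold enrichment (IP over input, log axis) of the 35 Slc peaks within 200 nt of the 5′ end that pair 1 to 1, with 1 row per gene, circles for Wtap flox/flox and squares for Wtap-HKO. In 32 rows the centred ratio is above 0, and in the 3 lowest rows, Slc22a23, Slc25a34 and Slc10a2, it is below 0. Over all genes it was above 0 at 1085 of 1263 such pairs.

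Over the whole gene, 190 Slc peaks in 133 genes paired 1 to 1. Where 2 enrichments are given for a peak, the first is Wtap flox/flox and the second Wtap-HKO. The centred log2 ratio of the pairs had a median of -0.03 (interquartile range -0.74 to 0.70) and ran from -2.41 to 2.09. A centred log2 ratio under -1 was found at 30 pairs (15.8%, 11.3 to 21.6%), beside 12.7% of all pairs. A ratio over 1 was found at 29 pairs (15.3%, 10.8 to 21.1%), beside 14.7%. Among the 40 pairs in the first 10% of the span, 0 were under -1 and 16 over 1, beside 55 and 581 of 1642 pairs in all genes. Among the 84 pairs in the last 10%, 17 were under -1 and 5 over 1, beside 595 and 357 of 4000. At the fold limit, Slc22a3 (-1.01) and Slc16a1 (1.03) lay just inside, and Slc44a1 (-0.97) and Slc25a11 (0.98) just outside.

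**Figure D3:**
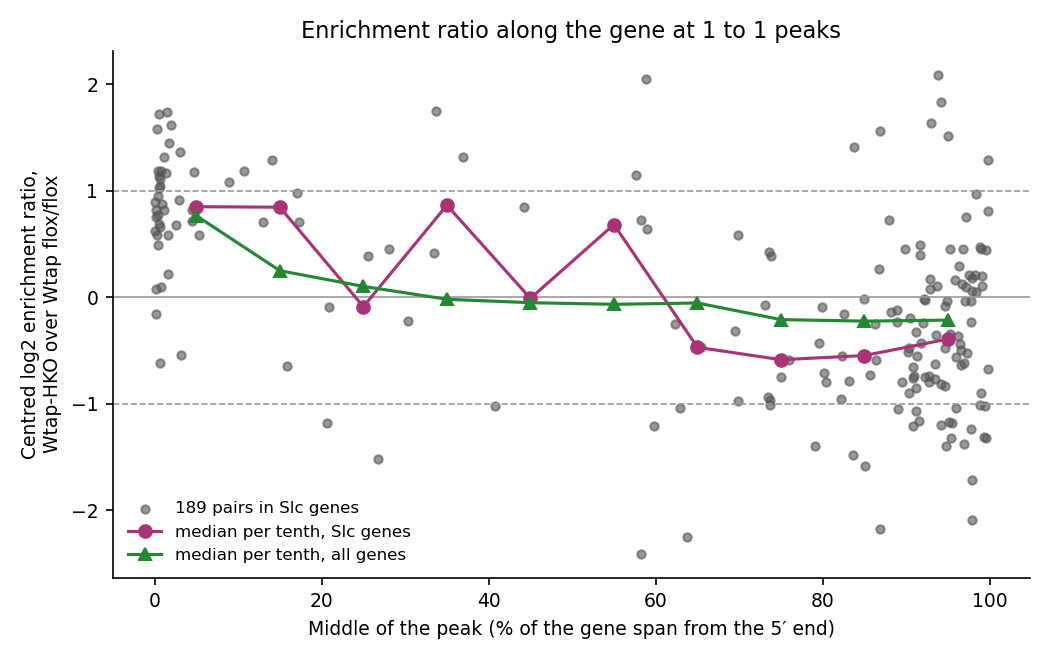
Centred log2 ratio of fold enrichment, Wtap-HKO over Wtap flox/flox, against the position of the peak (% of the gene span from the 5′ end) for the placed Slc pairs (dots), with the median per 10% of the span for Slc genes (circles) and all genes (triangles). Dashed lines mark 1 and -1. The Slc median was 0.85 in the first 10% and -0.39 in the last 10%, and between 20% and 70% of the span each point rests on 3 to 7 Slc pairs.

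The lowest ratio was on Slc45a4, at a peak at 58.3% of the span (22 in Wtap flox/flox, 4.18 in Wtap-HKO, centred log2 -2.41). Slc26a2, the sulfate carrier of cartilage and other tissues, had 3 of the 8 lowest pairs. Its enrichments were 14.9 and 3.16, 21.1 and 4.72, and 33.4 and 12.1, whereas its most 3′ peak had 5.56 and 6.32. The others were Slc25a33, a mitochondrial pyrimidine nucleotide carrier (6.75 and 1.6), Slc16a12 (5.95 and 1.83), Slc25a44, a mitochondrial branched-chain amino acid carrier (4.66 and 1.57), and Slc52a2, a riboflavin transporter (7.77 and 2.74). Of the 30 pairs under -1, 28 were narrower in Wtap-HKO, with median widths of 358 and 180 exonic nt, beside 1062 of 1335 such pairs in all genes (389 and 241 nt).

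The highest ratio was on Slc35e4 near its 3′ end (6.73 in Wtap flox/flox, with a false discovery rate of 0.001, and 28.9 in Wtap-HKO, centred log2 2.09). It was followed by Slc39a8, an importer of zinc and manganese (5.40 and 22.6), and Slc16a13 (9.52 and 34.3). These 3 peaks lay at 93.8%, 58.8% and 94.2% of the span, whereas 16 of the 29 pairs over 1 were in the first 10%. Slc25a30 (2.33 and 7.91), Slc22a7 (2.32 and 7.83), Slc35e3 (3.39 and 11.3) and Slc6a8, the creatine transporter (6.68 and 20.7), were within 200 nt of the 5′ end. Slc16a9, at 93.0% of the span, had 5.27 over 91 exonic nt and 16.5 over 601 exonic nt. Of the 29 pairs over 1, 22 were wider in Wtap-HKO, with median widths of 210 and 240 exonic nt, beside 1240 of 1540 in all genes (210 and 301 nt).

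Opposite ratios often stood within 1 gene, though whether they lay on the same transcript was not examined. In 42 Slc genes with 2 or more placed pairs, the most 5′ pair had the higher ratio in 34 (81.0%), beside 62.9% of 2254 genes in all. The most 5′ pair was above 0 and the most 3′ pair below 0 in 24 of the 42 genes (57.1%, beside 35.6% of all), and the reverse was seen in 4 (9.52%, beside 14.1%). Whether the Slc genes stand apart was not tested. In Slc25a33 the peak at the 5′ end had 2.42 and 4.17, and the peak at 97.9% of the span had 6.75 and 1.6. In Slc46a1, the proton-coupled folate transporter, the peak at the 5′ end had 2.04 and 5.12 (centred log2 1.32) and the next pair was at -1.18. In Slc6a9, a glycine transporter, the values were 0.95 at the 5′ end (9.66 and 18.8) and -1.38 near the 3′ end. A peak of Slc6a9 overlaps one of the antisense gene Ccdc24, so reads of the 2 genes may not be separable there.

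Transporters of bile acids and organic ions had different ratios along the same gene. Slc10a1, the sodium-dependent bile acid uptake carrier of the sinusoidal membrane, had its main peak at chr12:80953183-80955547, 2 nt from the 3′ end, with 11.7 in Wtap flox/flox, against 12.3 in Wtap-HKO. Its peak near the 5′ end had 2.06 and 4.70 (centred log2 1.18), and a peak of 2.42 at 83.1% of the span was listed in Wtap flox/flox alone. Slc22a7, an organic anion transporter, had 1 peak at the 5′ end, with 2.32 and 7.83. Slc22a23 had 4 peaks in Wtap flox/flox, against 2 in Wtap-HKO. Its main peak, near the 3′ end, had 9.21 and 3.94 (centred log2 -1.24), and the peaks of 3.19 and 1.98 next to it were in Wtap flox/flox alone. Slc47a1, which exports organic cations, had no peak in either list.

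The fatty acid transport proteins, acyl-CoA synthetases of the Slc27 family, had 6 Wtap flox/flox and 5 Wtap-HKO peaks, of which 3 paired 1 to 1 with a median centred log2 ratio of 0.62. Slc27a5, which also activates bile acids for conjugation, had 2.11 at the 5′ end in Wtap flox/flox, against 4.61 in Wtap-HKO. Slc27a2 had 4.90 and 7.6 at the 5′ end, and its peak of 2.28 at 99.1% of the span was listed in Wtap flox/flox alone. Slc27a4 had 2 peaks at 88.8% and 90.6% of the span in Wtap flox/flox (2.23 and 2.02) and none of these in Wtap-HKO, where its only peak was at the 5′ end (9.53). Slc27a1 had a shared peak at 93.6% of the span with 6.15 and 4.87.

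Among sugar carriers, Slc2a1, the GLUT1 glucose carrier, had 7.61 and 12.4 at the 5′ end. Toward its 3′ end 2 peaks of Wtap flox/flox (3.50 and 11.3) overlapped 1 peak of Wtap-HKO (8.19). Slc2a9, a urate carrier, had 5 peaks in Wtap flox/flox, from 2.24 to 3.81, and 3 in Wtap-HKO, at 5.12, 26.2 and 31.6. The last 2 of these had false discovery rates of 8.9e-07 and 2e-14 and lay in the 5′ part of the span, while 2 peaks near its 3′ end were in Wtap flox/flox alone. Slc2a10 and Slc5a9 had no peak in either list.

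Of 10 amino acid transporters described in hepatocytes, 9 had a peak in both lists and Slc7a11 had none in either. Slc3a1, the heavy subunit of the cystine transporter, had 6.78 and 20.4 at its 5′ end and 5.10 and 2.07 at its 3′ end (centred log2 1.58 and -1.31). A peak of Slc3a1 overlaps one of the antisense gene Prepl, and the library strand setting is not given in the sources used here, so reads of the 2 genes may not be separable there. Slc3a2, the heavy chain that partners Slc7a5, had 4.72 and 7.89. Slc7a5 had 2 peaks toward its 3′ end in Wtap flox/flox (16.7 and 11.4) that overlapped 1 of Wtap-HKO (12.8), and a 5′ peak of 19.6 in Wtap-HKO alone. Slc7a2, a cationic amino acid transporter, had 2.44 and 1.56 at 90.8% of the span.

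The Slc38 family carries glutamine and other neutral amino acids, and its 6 pairs had 3 ratios below 0 and none past 1 in either direction. Slc38a2 had 6.78 and 4.02 at 93.4% of the span and, in Wtap-HKO alone, a peak of 4.99 at its 5′ end. Slc38a3 had a peak of 1.40 at 96.2% of the span in Wtap flox/flox alone, while the peaks in its first 10% had 2.13 and 4.10 in Wtap flox/flox against a single peak of 7.98 that overlapped both in Wtap-HKO. Its peak of 2.75 at 54.6% of the span was in Wtap-HKO alone. Slc38a4 had 4.18 and 6.56 at a peak of several exons. Slc1a2, a glutamate transporter, had 8.87 over 1110 exonic nt near its 3′ end in Wtap flox/flox, where Wtap-HKO had 2 short peaks of 3.84 and 2.97. Slc43a1 had 5.97 over 599 exonic nt in Wtap flox/flox, overlapping 2 Wtap-HKO peaks of 5.21 and 24.4.

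Slc16a1, the MCT1 carrier of lactate and ketone bodies, had 3 peaks in either list. The one at the 5′ end had 4.91 and 10.1 (centred log2 1.03), and those at 73.7% and 85.7% of the span had 3.23 and 1.62, and 2.87 and 1.75. Slc16a10, an aromatic amino acid carrier, had 3 peaks in Wtap flox/flox (2.91, 8.12 and 15.4) and a different one at the 5′ end in Wtap-HKO (5.90). Slc13a3, a sodium-coupled dicarboxylate carrier, had 4.76 and 3.01 at its 3′ end, and Slc13a5, the citrate carrier, had no peak.

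For the metal transporters, Slc30a1, the zinc exporter of the plasma membrane, had a long peak with 13.5 and 6.73 (centred log2 -1.02). Slc30a10, a manganese exporter, had 11.4 and 17.2. Slc39a14, an importer of zinc, manganese and iron, had 7.64 and 4.99 at 93.5% of the span. Slc31a1, the copper importer, had a peak at the 5′ end in Wtap-HKO alone (3.22), and Slc11a2, the iron importer DMT1, had a peak at 83.0% of the span in Wtap flox/flox alone (3.59).

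The mitochondrial carriers of hepatocyte metabolism differed by the end of the gene as well. Slc25a1, the citrate carrier, had 1.95 and 3.48 at its 5′ end. Slc25a20, which carries acylcarnitines for fatty acid oxidation, had 2.20 and 4.90 there, and its peaks of 1.44 and 1.59 near the 3′ end were in Wtap flox/flox alone. Slc25a10, the dicarboxylate carrier, had 1.89 and 2.86 at the 5′ end, and 2.11 at 73.1% of the span in Wtap flox/flox alone. Slc25a15, the ornithine carrier of the urea cycle, had 4.21 and 9.69 at the 5′ end and 4.09 and 2.22 at about 90% of the span. Slc25a13, the aspartate and glutamate carrier citrin, had 2.70 and 1.34 at 99.4% of the span, and Slc25a25, an ATP-Mg and phosphate carrier, had 2.95 and 1.31 at 95.5%. Slc25a47, which is enriched in liver, had 6.37 and 3.62 at 94.7% of the span and, in Wtap flox/flox alone, a peak of 12.3 that could not be placed on its RefSeq span.

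Carriers of vitamins, nucleosides and nucleotide sugars included 2 genes with a peak in Wtap flox/flox alone, the thiamine carrier Slc19a2 (2.91) and the ascorbate carrier Slc23a1 (2.57), while Slc19a3 had none in either list. Slc29a1, the ENT1 nucleoside carrier, had 4.94 and 6.51 at the 5′ end and 2.37 and 2.34 near the 3′ end. Slc35d1, which carries UDP-sugars into the endoplasmic reticulum, had 5.97 and 14.7 at 14.1% of the span and 4.02 and 1.97 at 96.0%. The peak at 14.1% began 12 nt downstream of a RefSeq start. Slc35a1, the CMP-sialic acid carrier, had 3.31 and 3.57. The 3 peaks of Slc46a3, a lysosomal carrier, were nearly equal in the genotypes, with 5.91 and 5.90, 5.23 and 5.24, and 4.91 and 5.30. Over the 47 hepatocyte transporters reported, 37 had a peak in both lists, 3 in Wtap flox/flox only, 1 in Wtap-HKO only and 6 in neither. The 42 pairs of these transporters had a median centred log2 ratio of 0.08, with 7 under -1 and 10 over 1, beside 12.7% and 14.7% of all pairs.

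**Figure D4:**
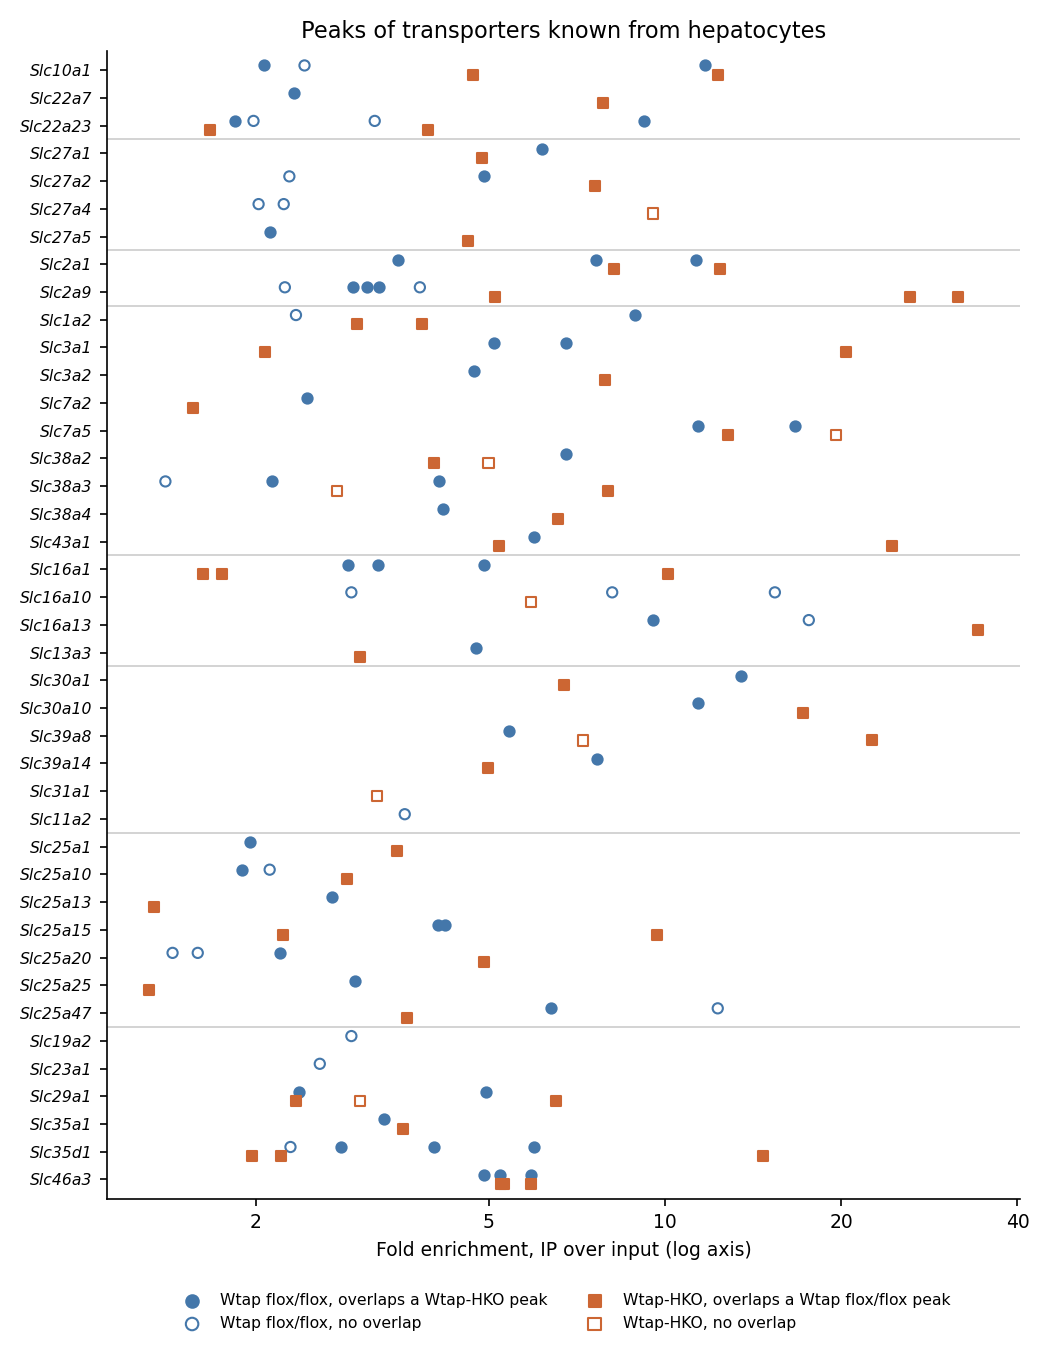
Fold enrichment (IP over input, log axis) of every peak of the 41 hepatocyte transporters with a peak, 1 gene per row in the order of their classes, circles for Wtap flox/flox and squares for Wtap-HKO, filled where the peak overlaps one of the other list and open where it does not. Of 74 Wtap flox/flox peaks 22 are open, and of 59 Wtap-HKO peaks 8 are open. Over all genes 19.9% of Wtap flox/flox peaks and 35.3% of Wtap-HKO peaks had no overlap. Whether these transporters differ from all genes was not tested.

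By family, the 194 genes fell into 42 Slc families, of which 17 had 4 or more genes with a peak (148 genes). More peaks were listed in Wtap-HKO for 16 families, fewer for 15 and equal numbers for 11. The mitochondrial carriers (Slc25, 34 genes) were the largest, with 60 and 52 peaks and low median enrichments of 3.48 and 3.84. They held 12 of the 40 peaks at a 5′ end in Wtap flox/flox and 16 of the 68 in Wtap-HKO. Their 41 pairs split evenly, with 6 under -1 and 6 over 1. For this and the families below, the shares over all pairs were 12.7% and 14.7%.

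Peaks were fewer in Wtap-HKO for the monocarboxylate family Slc16 (26 and 20 in 10 genes), for the organic ion transporters Slc22 (15 and 10 in 11 genes) and for the bile acid family Slc10 (11 and 8 in 5 genes). In Slc16, 10 peaks of Wtap flox/flox and 3 of Wtap-HKO were unshared, and of 15 pairs 5 were under -1 and 3 over 1. In Slc22, 9 of 15 Wtap flox/flox peaks and 4 of 10 Wtap-HKO peaks were unshared. Over all genes 19.9% of the Wtap flox/flox peaks and 35.3% of the Wtap-HKO peaks were unshared. Of the 11 Slc22 genes, 3 had peaks in Wtap flox/flox only and 3 in Wtap-HKO only. The sulfate and anion exchangers (Slc26) had 11 and 10 peaks in 4 genes, with 4 of 8 pairs under -1, 3 of them in Slc26a2. The phosphate and organic anion carriers (Slc17) had 8 and 7 peaks in 4 genes, and 4 of their 5 pairs were below 0.

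Over all genes the Wtap-HKO list was longer (19185 peaks against 15635), and among the Slc families peaks were more numerous in it for the chloride-coupled cation cotransporters Slc12 (6 and 12 in 6 genes), the sodium-proton exchangers Slc9 (3 and 7 in 5 genes), the amino acid carriers Slc7 (6 and 11 in 7 genes) and the nucleotide sugar carriers Slc35 (29 and 36 in 19 genes). All 6 Slc12 peaks of Wtap flox/flox overlapped a Wtap-HKO peak. Of the 12 Wtap-HKO peaks, 6 were additional, beside 35.3% of all Wtap-HKO peaks. The 5 Slc12 pairs ran from 0.11 to 0.76. In Slc12a7, a potassium-chloride cotransporter, 2 peaks near the 3′ end were shared (7.88 and 8.99, 1.66 and 2.29). Peaks at the 5′ end (9.03) and at 36.8% of the span (5.08) were in Wtap-HKO alone. The latter began 55 nt downstream of a RefSeq start inside the span. In Slc7a8, a neutral amino acid exchanger, the peak at the 5′ end had 17.1 and 32.1, and 3 further peaks from 2.90 to 3.27 were in Wtap-HKO alone. Slc35 had 6 of its 22 pairs over 1 and 1 under -1.

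In the other families with 4 or more genes the numbers of peaks differed by at most 2. The zinc exporters (Slc30) had 8 and 7 peaks in 7 genes, and every gene had a peak in both lists. The metal importers (Slc39) had 14 peaks in either list. Slc38 had 10 and 12 peaks, Slc2 had 11 and 10, Slc27 had 6 and 5, Slc6 had 7 and 6 and Slc1 had 5 and 5. Among the smaller families, Slc43 had 4 and 8 peaks, Slc15 2 and 6, Slc8 1 and 5 and Slc4 1 and 4.

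**Figure D5:**
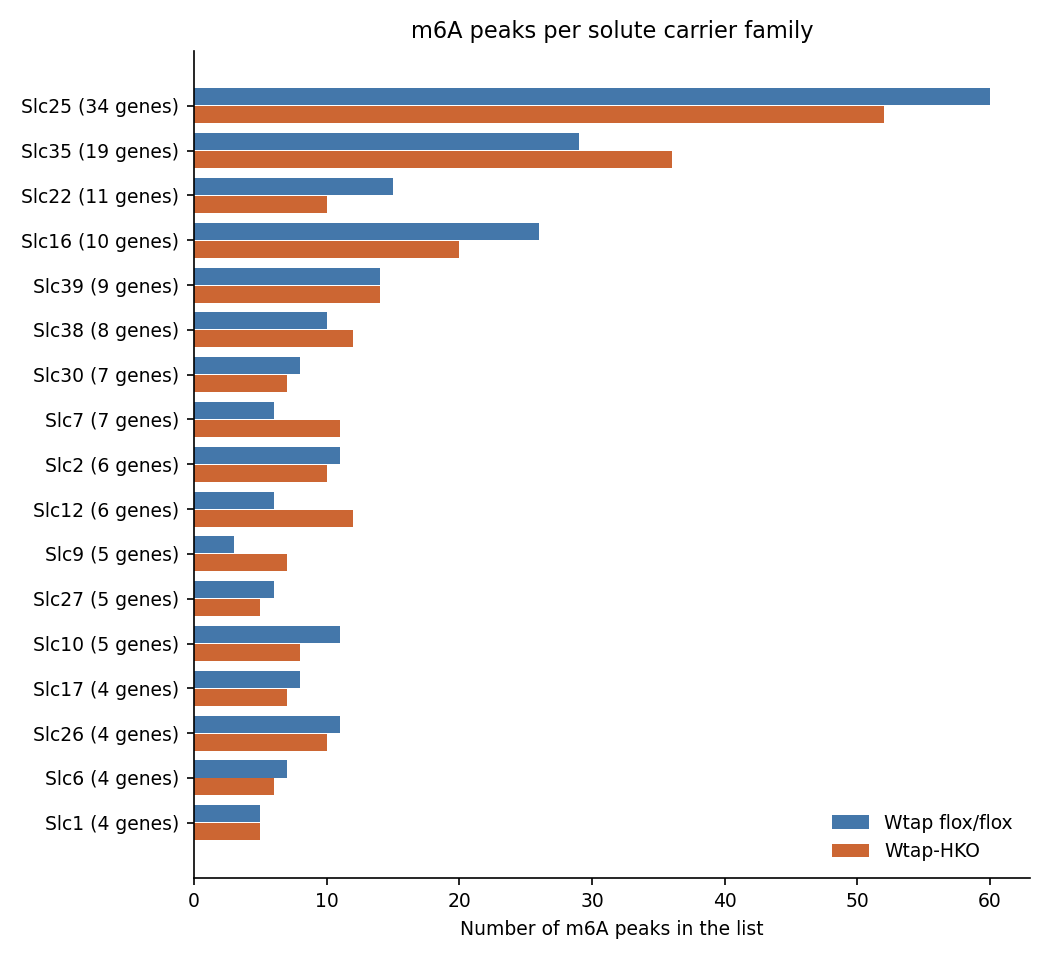
Number of m6A peaks in either list for the 17 Slc families with 4 or more genes with a peak, upper bars for Wtap flox/flox and lower bars for Wtap-HKO, with the number of genes in parentheses. Slc25 has 60 and 52 peaks, and Slc12, Slc9 and Slc7 have longer bars in Wtap-HKO (12, 7 and 11 peaks) than in Wtap flox/flox (6, 3 and 6).

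The genes with most peaks in Wtap flox/flox were Slc16a12, Slc26a1, Slc2a9 and Slc45a4, with 5 each. In Wtap-HKO they were Slc45a4 with 7, and Slc15a3 and Slc35b4 with 5 each. Slc26a1, a sulfate and oxalate exchanger of hepatocytes, had 5 peaks in Wtap flox/flox, against 3 in Wtap-HKO, with 3.93 and 2.30 near the 3′ end, 10.8 and 8.76 at 69.5% of the span and 4.23 and 10.6 at 36.9%. RefSeq starts lay within the bounds of the peak at 36.9%. In Slc16a12 the peaks of 3.10 and 3.03 in the last 10% of the span were in Wtap flox/flox alone, and 2 shared peaks there had 5.95 and 1.83, and 5.32 and 2.40. Slc15a3, a lysosomal peptide and histidine carrier, had 1 Wtap flox/flox peak (9.92). Its Wtap-HKO peaks numbered 5, from 4.16 to 20.6. Of these, 3 lay at or beyond the 3′ end of its annotated span. The peak of 20.6 began upstream of the 5′ end, and that of 19.4 began at it. A Wtap-HKO peak of Slc15a3 overlaps one of the antisense gene Tmem132a. Peaks of another gene overlapped those of 13 Slc genes in Wtap flox/flox, against 16 in Wtap-HKO. Antisense overlaps in both lists included Slc6a9, Slc16a9, Slc25a10 and Slc30a1, and Slc25a11 had one in Wtap-HKO only. Their values may include reads of the other gene.

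Several of the highest enrichments were shared exactly by many rows of a list. Slc37a2, a sugar phosphate exchanger, had the highest in Wtap flox/flox (50.1 over 180 exonic nt, false discovery rate 2e-27) and 34.5 at the same place in Wtap-HKO. Slc12a2, a sodium-potassium-chloride cotransporter, had the highest in Wtap-HKO (58.7, false discovery rate 2.5e-16), in a peak 435 nt from its 5′ end that was not listed in Wtap flox/flox. It was followed by Slc28a2 (39.8), Slc9a9 (39.3, false discovery rate 1e-178) and Slc1a3 (38.8). The enrichment and false discovery rate of Slc1a3 were found in 11 rows of the list, those of Slc28a2 in 4 and those of Slc12a2 in 3. Slc27a6, Slc35e4 and Slc39a6 each had exactly 36.1 with a false discovery rate of 1.2e-09, a pair of values found in 26 rows of the Wtap-HKO list. Likewise the 27.2 of Slc16a3 in Wtap flox/flox (4.5e-07) was shared by 20 rows, and the 22 of Slc36a4 (1.4e-05) by 19. The remaining high peaks of Wtap flox/flox were Slc26a2 (33.4, shared by 4 rows), Slc16a9 (27.7), 2 peaks of Slc45a4 (22 each) and Slc25a48 (21.1, shared by 2 rows).

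Few genes had 2 or more peaks in 1 list and none in the other. In Wtap flox/flox these were Slc22a30 (2.41 and 4.65) and Slc41a2, a magnesium carrier (6.51 and 2.38). In Wtap-HKO they were Slc8a1, the sodium-calcium exchanger (3 peaks, from 12.3 to 32.5), Slc4a2, a chloride-bicarbonate exchanger (3 peaks, from 2.78 to 3.82), Slc9a3, a sodium-proton exchanger of epithelia (12.2 and 32.5), Slc7a6 (4.18 and 12.2), Slc24a3 (4.52 and 7.90) and Slc35a2, the UDP-galactose carrier (12.6 and 5.87). Of the 10 markers of other liver cells, 7 had a Wtap-HKO peak and 4 a Wtap flox/flox peak, and their part in these peaks was not tested.

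The authors' list of differing peaks held 91 rows in 73 Slc genes. Its own fold changes and p-values were not used here. Of the Slc peaks, 87 of Wtap flox/flox (29.6%, 24.7 to 35%) and 79 of Wtap-HKO (25.5%, 21.0 to 30.6%) overlapped a row, beside 22.3% and 18.1% of all peaks. Of the 91 rows, 65 overlapped a peak of both genotypes, 18 a Wtap flox/flox peak only and 8 a Wtap-HKO peak only (71.4%, 19.8% and 8.79%, beside 65.9%, 17.9% and 15.3% of all rows). At the 59 listed pairs the centred log2 ratio was below 0 at 41 and above 0 at 18, beside 1378 and 829 of all 2207 listed pairs. The median was -0.79, beside -0.64 over all listed pairs. An edge of the row was within 200 nt of the 5′ end for 18 rows and of the 3′ end for 9, beside 697 and 513 of the 3530 placed rows of all genes. Within 1 gene, rows that overlapped pairs with ratios above and below 0 were listed for Slc25a15, Slc25a44 and Slc35d1. The ratios were 1.19 and -0.89, 1.16 and -1.58, and 1.29 and -1.04 at the more 5′ and the more 3′ row. Rows without a 1 to 1 pair have no ratio here. The 2 rows of Slc10a1 had ratios of 1.18 and 0.06. Slc25 contributed 20 rows in 17 genes, Slc16 10 rows in 6 genes and Slc35 9 rows in 6 genes.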

How the data were processed

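m6ARIP-seq was performed on liver RNA with 2 IP and 2 input libraries for each of 2 genotypes. Per the methods and the labels' processing notes, the authors trimmed reads (fastp 0.19.11), aligned them to GRCm38 (BWA 0.7.12), called IP over input with exomePeak and named HOMER 4.9.1. They deposited 3 lists in which replicates are combined. Fold enrichment was deposited as a linear ratio of IP over input and the false discovery rate as a log10 score. No list holds values per library, so depth is unknown and tests across replicates could not be made. The columns of the list of differing peaks with the authors' own log2 fold changes, p-values and false discovery rates were not used.

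Members and gene lists were chosen with earlier results of these data known. The members, overlaps (1 exonic base, same strand), 1 to 1 pairs, centred log2 ratios (limit 1) and distances to RefSeq gene ends (200 nt, GRCm38.p6) were computed in Python 3.11.15 with pandas 2.3.3 and numpy 2.4.6 and tested on simulated data. Of the peaks, 13934 and 17130 could be placed on a gene span. The genes named were hepatocyte transporters by class, the genes with most peaks, the 8 highest peaks per list, the 8 most extreme pairs in each direction, genes with 2 or more peaks in 1 list only and pairs at the fold limit. The hepatocyte list held 1 further gene, which is not reported here. Other genes are named where a family or class turns on them and were chosen after their values were seen. Shares carry 95% Wilson intervals. Sequences are from RefSeq. The alternatives were other thresholds, overlaps, distances, scales and name rules.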

Additional observations from a re-analysis of the deposited data

How the results depend on the processing

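No paired analysis was possible because each list combines the replicates of a genotype, and for the same reason no replicate could be left out. With overlap required over 50% of the exonic length, the share of Wtap flox/flox Slc peaks that overlap a Wtap-HKO peak was 64.3% instead of 72.4%, and the share in the other direction was 65.5% instead of 71.0%. With 1 value per gene, its highest peak, the median fold enrichment was 6.51 instead of 4.93 in Wtap flox/flox and 7.48 instead of 5.31 in Wtap-HKO. As a difference of percentile ranks within the lists the Slc pairs had a median of -4.00 percentile points, beside -3.34 over all pairs. At pairs sharing 50% or more of both peaks the median centred log2 ratio was 0.05 instead of -0.03. At an absolute centred log2 ratio over 0.58, 60 Slc pairs were lower and 57 higher. A 3′ window of 500 nt, wider by construction, held 16.6% of Slc peaks in Wtap flox/flox, against 15.3% in Wtap-HKO, beside 17.2% and 14.1% of all peaks. Matched by gene name instead of position, 46.9% of the Wtap flox/flox and 41.6% of the Wtap-HKO Slc peaks were in genes of the list of differing peaks. The match by name, the 50% overlap and the limit of 0.58 were not computed over all genes, so these values have no background here. The other alternatives stayed within 1.5 times a count or inside the interval of a share, among them names with letters after the pattern, a fold enrichment of at least 2 and a 5′ window of 100 or 500 nt. Depth is unknown, so no limit of detection can be given.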
